A study of Mus musculus with 20 samples.

Results

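Plat, the gene of tissue plasminogen activator, and Serpine2, the gene of a serpin that inhibits it, were followed through meiotic resumption in mouse oocytes. The members were the rows with these symbols in the 2 deposited expression tables, 2 of the 8114 genes listed in either table. Both symbols were in both tables, at 1 row each, so no member was lost to a filter on low values. All samples came from C57BL/6 females aged 3 weeks that carried Zp3-Cre and the RiboTag allele, given 5 IU of PMSG, a gonadotropin, 44 h before collection. Zp3-Cre acts in growing oocytes, so that the tagged ribosomal protein is made in oocytes and not in the somatic cells around them. Oocytes were stripped of cumulus cells by pipetting, held in prophase I with 1 µM cilostamide (a phosphodiesterase inhibitor), and released into medium without it. Samples of 200 oocytes were taken before release (0 h, prophase I), at 2 h, 4 h and 6 h, which the labels call early, mid and late prometaphase I, and at metaphase I (8 h). Ribosome-bound mRNA was pulled down through the HA tag, and total RNA was taken alongside, which gave 10 groups with 2 libraries each.

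Tissue plasminogen activator is a secreted serine protease that cuts plasminogen to plasmin, a protease of broad action. In the mouse oocyte its mRNA is a long-studied case of a stored message: it is kept dormant with a short poly(A) tail and is translated when meiosis resumes, under the control of cytoplasmic polyadenylation elements (CPEs) in its 3′ UTR. Serpine2, also called protease nexin-1, is a secreted serpin that inhibits thrombin, plasmin and the plasminogen activators. In the ovary it is known as a product of granulosa and cumulus cells. Values are in scaled CPM, which is CPM (reads of a gene relative to the reads of its library) times a factor particular to each library. A change in value thus holds the change in a gene's share of its library and any difference between the factors.

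Plat (ENSMUSG00000031538.6, protein coding) lies on mm10 chromosome 8, plus strand, from 22757727 to 22782844, and its main transcript has 14 exons and 2525 bases. Serpine2 (ENSMUSG00000026249.10, protein coding) lies on chromosome 1, minus strand, from 79794197 to 79861180, with 9 exons and 2210 bases in its main transcript. No exon of another GENCODE vM21 gene overlaps either one. Because the polyadenylation signals of these mRNAs are what the stored-message background turns on, the 3′ UTRs of the main transcripts (738 bases in Plat, 808 in Serpine2) were searched on the transcript strand. The motifs were the CPE forms TTTTAT and TTTTAAT, the polyadenylation hexamer AATAAA and the Pumilio motif TGTANATA. In the 100 bases before the last hexamer, Plat held 2 copies of TTTTAAT, starting 96 and 60 bases before it, and Serpine2 held 1 copy of TTTTAT, starting 26 bases before it. These sites and the hexamers are shown 5′ to 3′ as DNA from the GENCODE transcripts, with 9 flanking bases and the motif in capitals. They lie in the last exon, within the 3′ UTR.
Plat CPE form at chr8:22782711-22782735, plus strand: actgtatgaTTTTAATaattgatga
Plat CPE form at chr8:22782747-22782771, plus strand: atatttataTTTTAATctattttag
Plat hexamer at chr8:22782807-22782830, plus strand: tacttaaatAATAAAttcagaggt
Serpine2 CPE form at chr1:79794351-79794374, minus strand: ctcttgttgTTTTATatactgcat
Serpine2 hexamer at chr1:79794325-79794348, minus strand: gttcactaaAATAAAgttggaaaa

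Of 5891 listed genes with a window of the same length before a last hexamer, 4.85% held TTTTAAT, 15.7% held TTTTAT, 19.4% held at least 1 of these and 3.17% held 2 or more copies. Plat was thus among the few windows with 2 copies. Over the whole 3′ UTR, Plat had 1 TTTTAT and 2 TTTTAAT, and Serpine2 had 5 TTTTAT and 1 TTTTAAT. The only AATAAA of Serpine2 starts 143 bases before the annotated transcript end, whereas the last one of Plat starts 29 bases before it. TGTANATA was in neither window, and 298 of the 5891 windows (5.06%) held it. A match is a match of letters, not a site shown to be used.

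**Figure D1:**
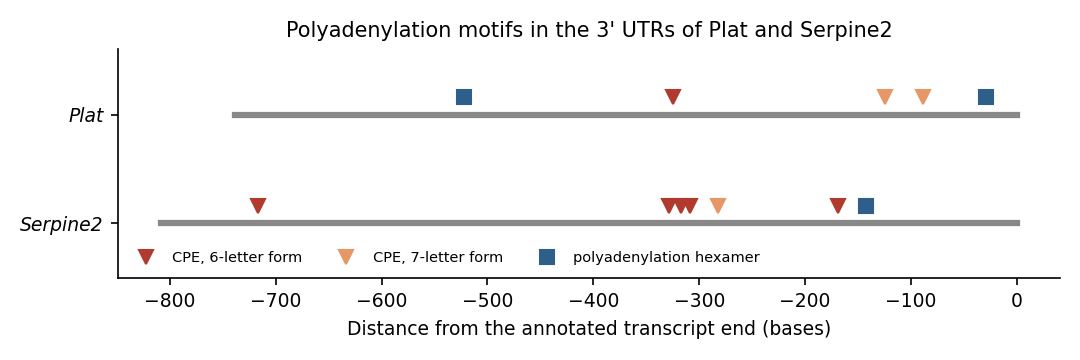
Positions of CPE forms (triangles; the 6-letter form is TTTTAT and the 7-letter form TTTTAAT) and hexamers (squares) along the 3′ UTRs, with distance in bases from the annotated transcript end on the x axis. Plat has its last hexamer 29 bases from the end with 2 CPE forms shortly before it, and Serpine2 has 1 hexamer at 143 bases with 1 CPE form starting 26 bases before it.

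The 20 libraries held an inferred 27571236 to 51714900 reads in listed genes, taking the common step of the values in a library as 1 read. Some listed genes had a value of 0 in a library, such as Inha and Gja1 in total RNA. The step was not checked against known reads, so these read numbers are inferred. Plat had an inferred 33690 to 201948 reads per library, and Serpine2 had 3537 to 15700. Each time had 2 libraries per RNA kind. Whether these came from different animals or cultures is not in the labels, and p-values cover the spread between these samples only, which may be technical. The oocyte identity of the samples was checked with 12 oocyte markers (such as Zp3, Gdf9 and Bmp15): 12 were listed on ribosomes and 11 in total RNA, with summed values of 23982 to 52357 and 15031 to 17674. On ribosomes that sum was 42583 to 52357 at 0 h and 23982 to 27181 at 8 h, and the part of this fall in the members' shares was not tested. The sum is weighted to its most abundant genes, such as Gdf9. Not all markers fell, as Dazl and Oosp1 had higher means at 8 h than at 0 h. Of 26 cumulus and granulosa markers, 4 were listed on ribosomes (Cyp19a1, Fshr, Nr5a2 and Cd44). In total RNA 6 were listed (Cyp19a1, Fshr, Nr5a2, Inha, Inhba and Gja1). Foxl2, Amh and Lhcgr were among those listed in neither table, which does not show that they had no reads. Of 12 markers of blood, stroma and endothelium, 2 were listed (Pecam1 and Tek), summing to 106 to 189 on ribosomes.

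On ribosomes, Plat was higher than at 0 h from 4 h on and was the more abundant member at every time. It was one of the most abundant ribosome-bound messages, ranking 25th of 7543 genes by mean value. Its replicates stood at 828 and 1194 scaled CPM at 0 h, 1353 and 1245 at 2 h, 2300.1 and 1610.0 at 4 h, 3088 and 3516 at 6 h, and 4728 and 4529 at 8 h. Both libraries at each of 4, 6 and 8 h were above both at 0 h, and the libraries of 4, 6 and 8 h did not overlap with each other. Such separation of libraries, here and below, can arise by chance, and its share over all genes was not counted. The widest spread was at 4 h, where replicate 1 was the higher one. In bulk samples, fewer cells of a type and less RNA per cell cannot be told apart.

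The log2 change of Plat against 0 h was 0.38 ± 0.17 at 2 h, 0.95 ± 0.17 at 4 h, 1.73 ± 0.17 at 6 h and 2.22 ± 0.17 at 8 h (limma, ± standard error, n = 2 per group), on the log2(value + 1) scale. The last of these is 4.65-fold. In limma with Benjamini-Hochberg adjustment over all genes, Plat did not pass at 2 h (adjusted p 0.267), where 1.47% of genes did. It passed at 4 h (adjusted p 0.0012, with 15.7% of genes called), at 6 h (1.7e-06, 27.9%) and at 8 h (4.7e-08, 42.1%). Among 7543 genes its rise at 8 h was the 53rd largest. By 4 h the log2 change had reached 42.9% of that at 8 h, and by 6 h 77.9%. Plat also differed over the 5 times by a moderated F test (adjusted p 1.5e-07), which called 34.6% of genes.

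Serpine2, the inhibitor, rose over the same hours at a far lower level. Its replicates stood at 96.1 and 125 scaled CPM at 0 h, 139 and 120.3 at 2 h, 171 and 185 at 4 h, 312 and 303 at 6 h, and 368 and 371 at 8 h. The libraries of 0 h and 2 h overlapped, and from 4 h on each later pair lay above all earlier libraries. The log2 change against 0 h was 0.24 ± 0.17 at 2 h (adjusted p 0.51), 0.69 ± 0.17 at 4 h (0.0087), 1.48 ± 0.17 at 6 h (5.7e-06) and 1.74 ± 0.17 at 8 h (4.5e-07; limma, n = 2 per group). The change at 8 h is 3.34-fold and the 214th largest rise. The call at 4 h was lost without replicate 1 of 0 h (0.50, adjusted p 0.0741) and with no mean-variance trend (adjusted p 0.0597). The F test over the 5 times had an adjusted p of 1.0e-06.

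**Figure D2:**
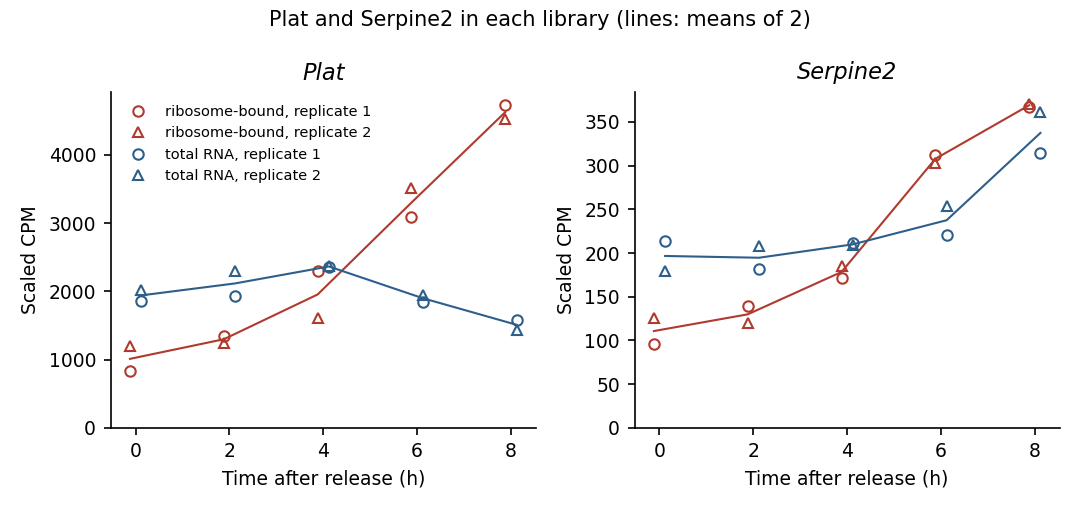
Scaled CPM (y axis, from 0) of Plat and Serpine2 in each of the 20 libraries by hours after release (x axis), with circles for replicate 1, triangles for replicate 2 and lines through the means of 2. Plat on ribosomes climbs from a mean of 1011 to 4629 while its total RNA ends below its start, and Serpine2 ends above its start in both kinds of RNA.

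The steps between neighbouring times asked in which interval the rise lay. No single interval passed for either gene, although all 6 estimates were positive. Plat changed by 0.57 from 2 h to 4 h (adjusted p 0.189), by 0.78 from 4 h to 6 h (0.103) and by 0.49 from 6 h to 8 h (0.215; limma). The unadjusted p-values were 0.0044, 0.00031 and 0.012. Serpine2 changed by 0.46 (adjusted p 0.291), 0.78 (0.0926) and 0.26 (0.558), with unadjusted p-values of 0.014, 0.00019 and 0.136. The 3 intervals called 0.729%, 0.0663% and 0.689% of genes. Leaving out 1 library at a time, the estimate between 4 h and 6 h ranged from 0.52 to 1.03 for Plat and from 0.73 to 0.84 for Serpine2. The estimate was as before without a 0 h library, since 0 h does not enter this step. Its adjusted p could still move, since all times share 1 estimate of the spread. Whether Plat or Serpine2 passed this step depended on the library left out. Serpine2 did pass this step when only genes with a value of 10 in every library were tested (limma adjusted p 0.045).

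In total RNA the members parted. Plat stood at 1859.7 and 2024 scaled CPM at 0 h, 1931 and 2304 at 2 h, 2357 and 2374 at 4 h, 1851 and 1950.4 at 6 h, and 1587 and 1434 at 8 h. Its level was thus highest at 4 h and lowest at 8 h, where both libraries were below all others. The moderated F test over the 5 times gave an adjusted p of 0.0166, with 2% of genes called. Against 0 h no time passed in limma: the log2 changes at 2, 4 and 6 h were 0.12, 0.29 and -0.03 (adjusted p 0.965 or above). At 8 h it was -0.36 ± 0.11 (95% interval -0.59 to -0.13, adjusted p 0.0732). From 4 h to 8 h, a comparison chosen after the values were seen, the log2 change of Plat was -0.65 ± 0.11 (adjusted p 0.0034, with 2.11% of genes called). That call was lost without replicate 2 of 4 h (adjusted p 0.0693) and with no mean-variance trend (0.153). In the same comparison Serpine2 changed by 0.68 ± 0.15 (adjusted p 0.0222). It did not pass without replicate 1 or 2 of 4 h (adjusted p 0.0977 and 0.239), without replicate 2 of 8 h (0.101) or with no mean-variance trend (0.153).

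Serpine2 in total RNA was higher at 8 h than at 0 h, and did not pass the test at earlier times. Its replicates stood at 214 and 179 scaled CPM at 0 h, 182 and 208 at 2 h, 211 and 209 at 4 h, 221 and 254 at 6 h, and 314 and 361 at 8 h. Both libraries of 8 h were above all others, and those of 0, 2 and 4 h overlapped. Against 0 h the log2 changes at 2, 4 and 6 h were -0.01, 0.10 and 0.27 (adjusted p 0.686 or above), and that at 8 h was 0.78 ± 0.15 (adjusted p 0.0050; limma, n = 2 per group). The rise at 8 h was 1.71-fold and ranked 204th of 7917. It did not pass without replicate 2 of 0 h (0.65, adjusted p 0.0882) or with no mean-variance trend (adjusted p 0.0750). The F test gave an adjusted p of 0.0176.

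Few genes were called in total RNA, which with 2 libraries per group does not show that few moved. In limma, 0% of 7917 genes were called at 2 h and 0% at 4 h, with 226 and 347 genes at an unadjusted p under 0.05. At 6 h 0.202% were called, and at 8 h 3.97%, with 613 and 1478 genes at an unadjusted p under 0.05. Serpine2 was one of 53 genes called higher at 8 h in both kinds of RNA, of 7346 genes in both tables. A gene's share of total RNA and its amount per oocyte cannot be told apart in these values.

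Markers of the cells that surround the oocyte bear on Serpine2, which they also make. On ribosomes the 4 listed cumulus and granulosa markers summed to 111 to 114 scaled CPM at 0 h and 164 to 172 at 8 h. Of these, Cyp19a1, the aromatase gene, rose from 34.0 ± 4.65 to 85.5 ± 7.39 (SD, n = 2), a log2 change of 1.31 ± 0.23 (limma adjusted p 0.00019). Fshr (0.61), Nr5a2 (0.27) and Cd44 (-0.90) did not pass. In total RNA the 6 listed markers summed to 151 to 184 at 0 h, 206 to 235 at 6 h and 114 to 223 at 8 h. At 6 h both sums were above those of 0 h, and so was Serpine2 (221 and 254 against 214 and 179). At 8 h the sums overlapped with those of 0 h, while the values of Serpine2 did not. The part of such cells in the Serpine2 values was not tested.

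The change on ribosomes beyond that in total RNA was taken as the difference of the changes within the tables, since the tables were normalized separately. For Plat the estimates were 0.26 ± 0.22 at 2 h, 0.67 ± 0.22 at 4 h, 1.76 ± 0.22 at 6 h and 2.58 ± 0.22 at 8 h on the log2 scale. The value at 8 h is 5.98-fold and was the 18th largest of 7346 genes. In limma it passed at 6 h (adjusted p 8.9e-06) and 8 h (3.8e-08), and not at 2 h (0.719) or 4 h (0.0788). For Serpine2 it was 0.25 at 2 h (adjusted p 0.742), 0.59 at 4 h (0.128), 1.21 ± 0.22 at 6 h (0.00070) and 0.96 ± 0.22 at 8 h (0.0028). Its rank at 8 h was 923rd, and the difference between its values at 6 h and 8 h was not tested. The 4 comparisons called 0.0953%, 5.1%, 11.7% and 21% of genes. At 4 h Plat passed without replicate 2 of 0 h (0.93, adjusted p 0.0104) or of 4 h (0.92, 0.0139) on ribosomes. Serpine2 passed there without replicate 2 of 0 h on ribosomes (0.79, 0.0453).

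**Figure D3:**
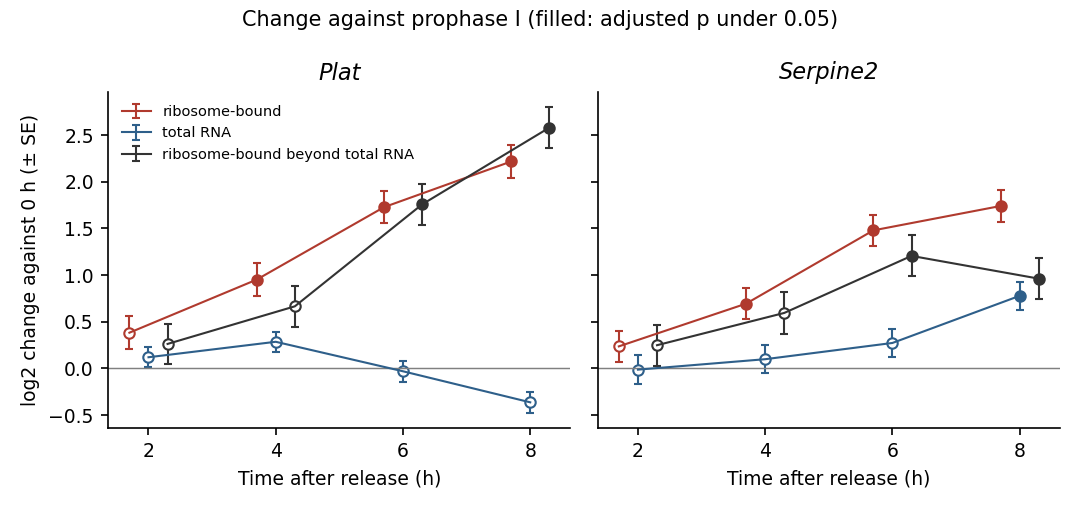
Log2 change against 0 h (y axis, bars are limma standard errors) by hours after release (x axis) for ribosome-bound mRNA, total RNA and the difference of the 2, with filled points for an adjusted p under 0.05. For Plat the difference of 2.58 at 8 h exceeds the ribosome-bound change of 2.22, and for Serpine2 the difference of 0.96 is below its ribosome-bound change of 1.74.

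As values with no test, since the tables were normalized separately, the ribosome-bound mean of Plat was 0.521 times its total RNA mean at 0 h, 0.613 at 2 h, 0.826 at 4 h, 1.74 at 6 h and 3.06 at 8 h. For Serpine2 the same ratio was 0.563, 0.667, 0.850, 1.30 and 1.09. The members were close to each other in this ratio through 4 h and apart at 8 h.

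The ratio of protease to inhibitor within a library does not depend on how libraries were scaled. Per kilobase of main transcript, the ribosome-bound means were 401 scaled CPM for Plat and 50.1 for Serpine2 at 0 h, and 1833 and 167 at 8 h. In total RNA Plat per kilobase was 8.64 times Serpine2 at 0 h, 9.86 times at 4 h and 3.92 times at 8 h. On ribosomes the log2 ratio, not corrected for length, ran from 3.09 to 3.36 in the 4 libraries of 0 h and 2 h and from 3.30 to 3.68 in the 4 of 6 h and 8 h. The libraries of 4 h, outside this comparison, stood at 3.74 and 3.11 on ribosomes, the highest and second lowest of the 10, and at 3.48 and 3.50 in total RNA. The early and late ranges on ribosomes overlapped, and the difference of 0.29 gave p = 0.0571 (exact two-sided permutation test, 4 against 4 libraries). In total RNA it ran from 3.11 to 3.49 in the early libraries and from 1.99 to 3.06 in the late ones, a difference of -0.79. These ranges did not overlap, and p was 0.0286, the smallest that this exact permutation test can give. Adjusted over the 2 tests by Benjamini-Hochberg, both p-values were 0.0571. Each group of 4 pools 2 times with 2 libraries each, which the test treats as alike. The late libraries of total RNA stood at 3.06 and 2.93 at 6 h and at 2.33 and 1.99 at 8 h.

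**Figure D4:**
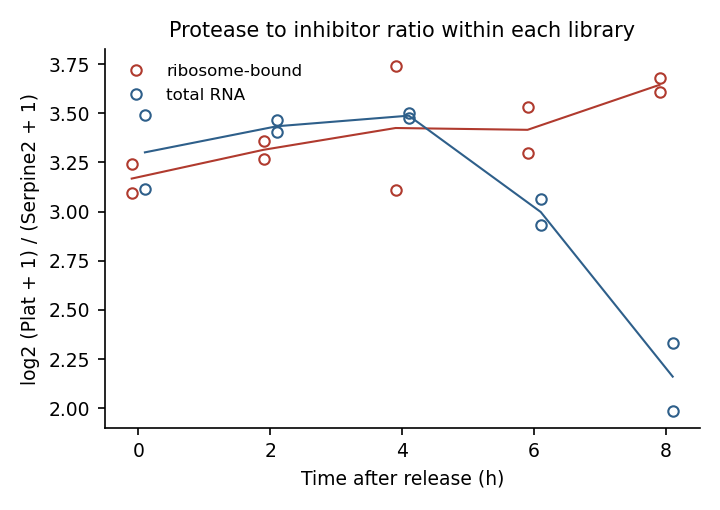
Log2 ratio of Plat to Serpine2 with 1 added to each value (y axis) in every library by hours after release (x axis), with lines through the means of 2. In total RNA both libraries of 8 h lie below all others, at 2.33 and 1.99, and on ribosomes the libraries of 8 h stand at 3.68 and 3.61.

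Of a list of 25 genes of the plasminogen system, 8 were listed in each table, and the protease Plau, plasminogen itself (Plg) and the receptor Plaur were in neither. On ribosomes at 8 h, 2 of the 8 were higher (Plat and Serpine2) and 1 lower (Eno1, an enolase that can bind plasminogen, -1.21), with a median log2 change of -0.34 against -0.06 over all genes. Over all genes 20.2% were higher and 21.8% lower there, so these counts lie near the background, and both higher genes are the members themselves. Reads of Eno1 can be shared with its pseudogene copies. In total RNA 1 was higher (Serpine2) and 1 lower (Anxa2, a cell surface partner of plasminogen activation). Anxa2 went from 51.7 ± 8.31 to 24.6 ± 2.68 scaled CPM (-1.04, adjusted p 0.0239), against a list median of -0.24 and 0.01 over all genes, of which 0.947% were higher and 3.02% lower. Lrp1, an endocytic receptor that clears protease-inhibitor complexes, stood on ribosomes at 399 and 431 at 0 h and 274 and 367 at 8 h (-0.39, adjusted p 0.0762). It was lower on ribosomes beyond total RNA (-0.74 ± 0.24, adjusted p 0.0279), where 11.6% of genes were higher and 9.43% lower. Serpini1, or neuroserpin, an inhibitor of tissue plasminogen activator in the nervous system, did not pass on ribosomes (-0.30, adjusted p 0.287) or in total RNA (-0.12, adjusted p 0.804).

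Among the serpin genes, 5 were listed on ribosomes and 4 in total RNA. Serpine2 was the 1 that rose in either, and 1 of 5 in each direction on ribosomes is near the 20.2% and 21.8% of all genes. On ribosomes Serpinb12 fell, with a log2 change of -1.30 (adjusted p 0.0072), and Serpinc1 (antithrombin, -0.47), Serpini1 (-0.30) and Serpinb8 (-0.31) did not pass. The median was -0.31 on ribosomes and -0.10 in total RNA.

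**Figure D5:**
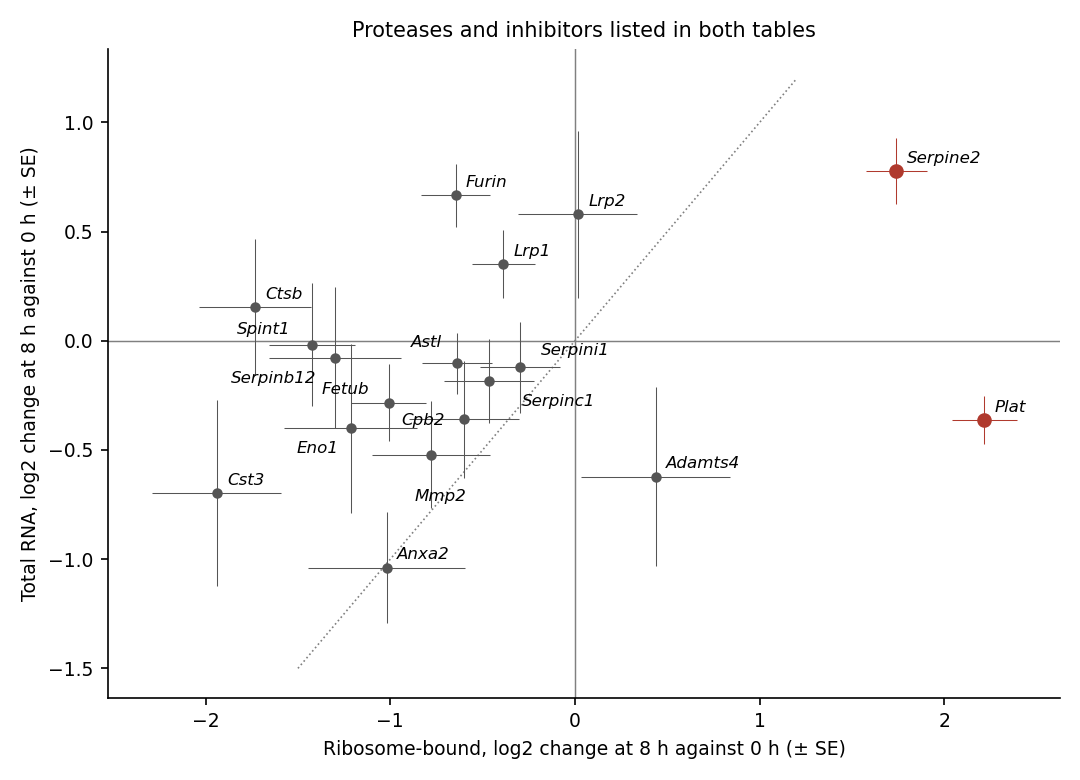
Log2 change at 8 h against 0 h on ribosomes (x axis) and in total RNA (y axis), with limma standard errors as bars, for the 18 plasminogen system genes, serpins and other secreted proteases and inhibitors listed in both tables. The dotted line marks equal change. Plat (2.22 and -0.36) and Serpine2 (1.74 and 0.78) are drawn in red at the far right.

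Over the 10 ribosome-bound libraries, the log2 values of Plat and Serpine2 had a Pearson r of 0.978, and over the 10 total RNA libraries an r of -0.761. Libraries and time points are shared by both genes, so these are descriptions. Among 5323 other named genes with a mean of at least 20, Serpine2 ranked 34th in likeness to Plat. Among the 5 most like Plat were Clcc1 (r = 0.992), Evi5 (0.991), Tbc1d15 (0.991) and Fbxo43 (0.990). Fbxo43 encodes the inhibitor of the anaphase-promoting complex also known as EMI2. The log2 changes of these 4 at 8 h on ribosomes ran from 1.17 (Evi5) to 1.95 (Tbc1d15). They were chosen by likeness to Plat over the same ribosome-bound libraries, so a rise there follows from the choice. In total RNA their changes at 8 h ran from -0.46 (Fbxo43) to 0.36 (Tbc1d15), none of them past the test. Among the 5 most like Serpine2 were Bcl2l10 (r = 0.993), Tmco1 (0.993), Ggta1 (0.989) and Rasa2 (0.987). Bcl2l10, a BCL2 family gene, was the 1 of these 4 that also rose in total RNA at 8 h (0.95, adjusted p 0.00013), as Serpine2 did.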

How the data were processed

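Ribosome-bound mRNA and total RNA were measured in 20 libraries, grouped by their titles, whose letters A and B became replicates 1 and 2. The description field calls the total RNA samples ribosome-bound too; titles and design were followed. Per the submitters' processing notes, the genome was mm10 and the tools included HISAT2, HTSeq, Trimmomatic 0.36, limma and edgeR. The sources used here do not give strand or poly(A) selection. The authors deposited a normalized signal, here called scaled CPM, with library totals of 968768 to 1052767. All values (100%) were whole multiples of 1 step per library within 0.01 of a step. That step was taken as 1 read, which was inferred and not checked against known reads. A value of 10 stood for 282 to 533 such reads. The plan had foreseen a count test on such reads, which was not run.

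After adding a pseudocount of 1, log2 was taken; a minimum of 1 in at least 2 libraries removed no gene. Linear models over all 5 times were fitted per table, and over the 7346 shared genes for the difference between RNA kinds, in limma 3.58.1 (R 4.3.3) with a mean-variance trend. The threshold was an adjusted p of 0.05 (Benjamini-Hochberg over all genes of a comparison), two-sided. Ratios were tested in scipy 1.17.1. The fits were tested on simulated data. Named genes are the members, members of 3 lists and the 5 genes most correlated with each member, of which some are not reported here. The members and lists were chosen with earlier results of these data known. Alternatives were other pseudocounts, filters, median centring, a replicate block, no trend and leaving out each library.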

Additional observations from a re-analysis of the deposited data

Results flagged for a closer look

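The change of both members from 0 h differed between ribosome-bound mRNA and total RNA by the interaction in limma (2 libraries per group). For Plat the difference was 1.76 at 6 h and 2.58 at 8 h on the log2 scale, and for Serpine2 it was 1.21 at 6 h and 0.96 at 8 h. Groups of 2 libraries are too small for the check on single outlying samples.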

How the results depend on the processing

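No value of either member that passed the test changed sign under any alternative run. The planned edgeR fit was not run. Without the mean-variance trend, Serpine2 lost its call at 4 h on ribosomes (0.69) and at 8 h in total RNA (0.78). With a value of 10 required in every library, it gained one from 4 h to 6 h on ribosomes (0.78). Leaving out 1 library at a time, Serpine2 ranged from 0.50 to 0.88 at 4 h on ribosomes, from 0.73 to 0.84 between 4 h and 6 h, from 0.65 to 0.91 at 8 h in total RNA and from 0.40 to 0.79 at 4 h beyond total RNA. Plat ranged from 0.52 to 1.03 between 4 h and 6 h and from 0.40 to 0.93 at 4 h beyond total RNA. Between 4 h and 6 h on ribosomes, whether either member passed depended on the library left out. The difference in total RNA of the log2 ratio ranged from -0.95 to -0.59, where 3 against 4 libraries allow no exact p below 0.0571. At 8 h, Plat ranged from 1.95 to 2.48 on ribosomes and from 2.32 to 2.84 beyond total RNA.

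Counts over all genes moved more. Without the trend they went at 2 h on ribosomes from 111 to 0, at 4 h from 1186 to 661, over the intervals from 55, 5 and 52 to 0, in total RNA at 6 h from 16 to 0, at 8 h from 314 to 158 and from 4 h to 8 h from 167 to 66, and beyond total RNA at 2 h from 7 to 0 and at 4 h from 375 to 154. The strict filter gave 184 at 2 h and 18 from 4 h to 6 h on ribosomes, and 19 at 2 h beyond total RNA. At 2 h on ribosomes, 55 genes were higher and 56 lower, or 80 and 50 with libraries centred. Without 1 library, counts on ribosomes ran from 15 to 171 at 2 h, 461 to 1120 at 4 h, 1267 to 2183 at 6 h and 2159 to 3249 at 8 h, and over the intervals from 2 to 90, 0 to 34 and 3 to 125. In total RNA they ran from 0 to 37 at 6 h, 52 to 414 at 8 h and 19 to 203 from 4 h to 8 h. Beyond total RNA they ran from 1 to 23, 151 to 426, 524 to 931 and 1084 to 1612 at 2, 4, 6 and 8 h.

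Replicate letters did not deviate together: the correlations of replicate differences ran from -0.11 to 0.05 between times on ribosomes, from -0.05 to 0.11 in total RNA and from -0.08 to 0.04 between RNA kinds. With a replicate block the count at 2 h on ribosomes went to 57, from 2 h to 4 h to 34 and from 4 h to 6 h to 2. The members' estimates did not move with the replicate block (Plat 2.22 and Serpine2 1.74 at 8 h on ribosomes), and no call of theirs changed.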

Other observations

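Other secreted proteases and inhibitors were looked at beside Plat and Serpine2. Of a list of 36, 9 were in the ribosome-bound table, and at 8 h against 0 h 6 of them fell and 1 rose in limma, with a median log2 change of -0.78 against -0.06 over all genes, of which 21.8% were lower and 20.2% higher. Astl, the ovastacin of cortical granules that cleaves ZP2 after fertilisation, fell from 1069 ± 267 to 683 ± 146 scaled CPM (SD, n = 2; -0.64, adjusted p 0.0119). Fetub, fetuin-B, an inhibitor of ovastacin, fell from 212 ± 49.1 to 104 ± 10.4 (-1.01, adjusted p 0.00077). The cysteine protease Ctsb (-1.73), the cysteine protease inhibitor Cst3 (-1.94), the serine protease inhibitor Spint1 (-1.42) and the proprotein convertase Furin (-0.65) also fell. Spint2, a relative of Spint1, rose by 1.79 (adjusted p 0.0046) at a low mean level of 9.69.

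In total RNA 1 of 10 listed members of the same list passed, where 3.97% of all genes did (0.947% higher and 3.02% lower). Furin rose from 269 ± 4.97 to 429 ± 42.0 (0.67, adjusted p 0.0111), opposite to its fall on ribosomes. Beyond total RNA, Furin was lower by -1.31 (adjusted p 0.00032), Ctsb by -1.89 (0.0054) and Spint1 by -1.41 (0.0104). Astl (-0.54, adjusted p 0.118) and Fetub (-0.73, adjusted p 0.0605) did not pass that test.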
